A study of Astyanax mexicanus with 14 samples.

Results

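Exposure to UV-B raised many genes of Mexican tetra larvae by a moderate amount in both a river-dwelling and a cave population, and these shared, moderately induced genes are described here. A gene was included when its mean count was at least 50 over the 14 libraries, its mean level in the 7 controls was under 1000 counts per mega-count (CPM), its control levels in the populations differed by less than 2 on the log2 scale, its mean log2 CPM was higher after UV-B by at least 0.8 in both populations, and at least 1 of these increases was under 1.5. The rule chose 166 of the 19076 genes in the table, and 12055 genes passed its filters on count, level and control difference. Both increases and the control difference were therefore the values that selected the genes, so they are given as a description, and the counts of genes that passed a test are read beside the share among all genes only.

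RNA was sequenced from whole larvae of Astyanax mexicanus at 6 days post-fertilization, with 4 larvae pooled for each library. Surface fish are the eyed, river-dwelling form of the species, and Pachón fish are an eyeless cave form. Larvae received 60 s of UV-B or were kept as controls under white light for the same time, and all were collected 90 min later. The groups were 4 surface control libraries (replicates 1 to 4), 4 surface UV-B libraries (1 to 4), 3 cave control libraries (2, 3 and 4) and 3 cave UV-B libraries (1, 2 and 4). Values of a gene are listed below in this order of replicates, as CPM after scaling with TMM (trimmed mean of M-values). A whole larva holds every tissue, so for each gene more cells of a type and more RNA per cell cannot be told apart, and it was not stated whether the pools came from separate clutches.

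UV-B is absorbed by DNA and leaves covalent links between neighbouring pyrimidines. Cells answer such damage and the stress that goes with it in several known ways: immediate early transcription factors are switched on within minutes, p53 raises genes that halt the cell cycle, and the integrated stress response and heat shock factors raise genes that protect or adjust protein synthesis. UV light reaches superficial tissue first, and a fish larva at this age also has a working intestine whose absorptive cells, the enterocytes, carry a brush border of microvilli, digestive enzymes and nutrient transporters. Names below are those that the study's gene tables give for 130 of the 166 identifiers. Of the 36 members with no name here, 21 are listed in those tables without one and 15 are not in the tables as used here, which are shortened and favour genes with small p-values. The named members were placed in groups by the known role of their products after their values had been seen, so the groups carry no test.

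Over the 166 genes the median increase after UV-B was 1.02 log2 units in surface fish (range 0.80 to 2.29) and 1.47 in cavefish (range 0.81 to 4.27), which is 2.03-fold and 2.77-fold. Over the 12055 genes that passed the filters the medians were near 0, at 0.0061 in surface fish and 0.0028 in cavefish. The increase was larger in cavefish for 145 genes and larger in surface fish for 21. The change was larger in cavefish for 52.1% of the 12055 filtered genes. It was so for 90.3% of the 31 strongly induced genes, which pass the same filters and rose by 1.5 or more in both populations. For 82 of the 166 genes both increases lay under 1.5, and for 80 only the surface increase did. For 4 (cdkn1a, gcnt3, sb:cb1058 and slc13a1) only the cave increase did. The rule thus admits genes with a large increase in a single population, and most of those it admitted had it in cavefish.

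**Figure D1:**
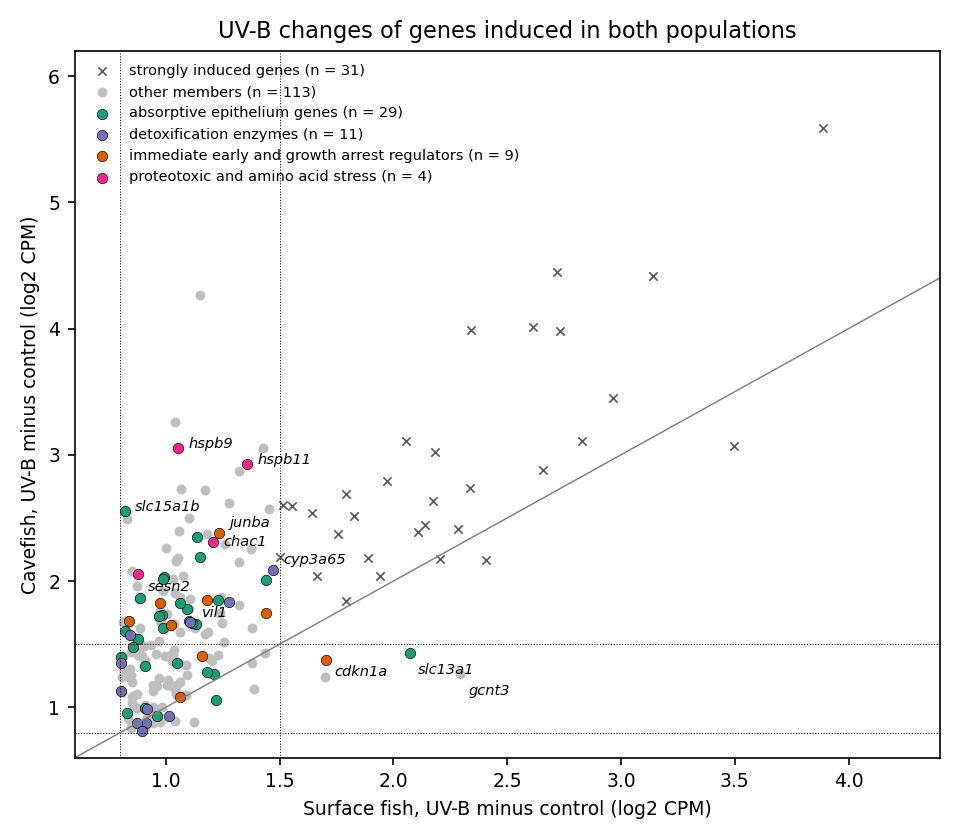
Increase after UV-B in surface fish (horizontal axis) and cavefish (vertical axis), as the difference of group means of log2 CPM, for the 166 moderately induced genes (circles) and, by the same filters, the 31 genes at 1.5 or more in both populations (crosses). Dotted lines mark 0.8 and 1.5, the grey line marks equal change, and 145 of the 166 circles lie above it.

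In the quasi-likelihood fit of edgeR over all genes, 163 of the 166 were called higher after UV-B in surface fish at an adjusted p-value under 0.05, where 13.4% of the 15523 genes tested were called, and 162 were called higher in cavefish, where 12.6% of 15244 were called. Every surface UV-B library lay above every surface control for 135 genes (13.7% of the filtered genes), every cave UV-B library lay above every cave control for 165 (21.8%), and both held for 134 (8.96%). The exception in cavefish was ENSAMXG00000029035, with 0.417, 0.673 and 4.25 CPM in controls and 4.59, 2.76 and 2.72 CPM after UV-B. Since the genes were selected on these contrasts, the counts say nothing beyond the selection.

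That library was 1 of 3 that stood apart for these genes. Surface control 2 was the highest of its group for 107 of the 166 genes (28.0% of the filtered genes), surface UV-B 2 was the lowest of its group for 130 (27.3%) and cave control 4 was the highest of its group for 136 (39.2%). Each of these libraries lay closer to the opposite treatment than its replicates did, and their medians over the 166 genes relative to the control mean of their population were 0.27, 0.71 and 0.29 log2 units. The within-group SD of log2 CPM of the members was larger than that of the filtered genes in 3 groups, with medians of 0.30 against 0.16 in surface controls, 0.27 against 0.17 in surface UV-B, and 0.34 against 0.22 in cave controls. In cave UV-B libraries the medians were 0.16 and 0.17. Without these 3 libraries the median increase of the same 166 genes was 1.19 in surface fish and 1.69 in cavefish. Both populations were then without overlap for 161 genes. The choice was made after seeing the data, and the 3 lay closer to the opposite treatment, so leaving them out favours separation. The share of all genes was not computed for this setting. What sets these libraries apart was not tested, and the labels name no sequencing batch. Library totals ran from 7.42 to 15.26 M counts, and the 166 genes took 1.1% ± 0.18 of the counts of surface controls (SD, n = 4), 1.97% ± 0.26 of surface UV-B libraries (n = 4), 0.818% ± 0.126 of cave controls (n = 3) and 1.86% ± 0.085 of cave UV-B libraries (n = 3).

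**Figure D2:**
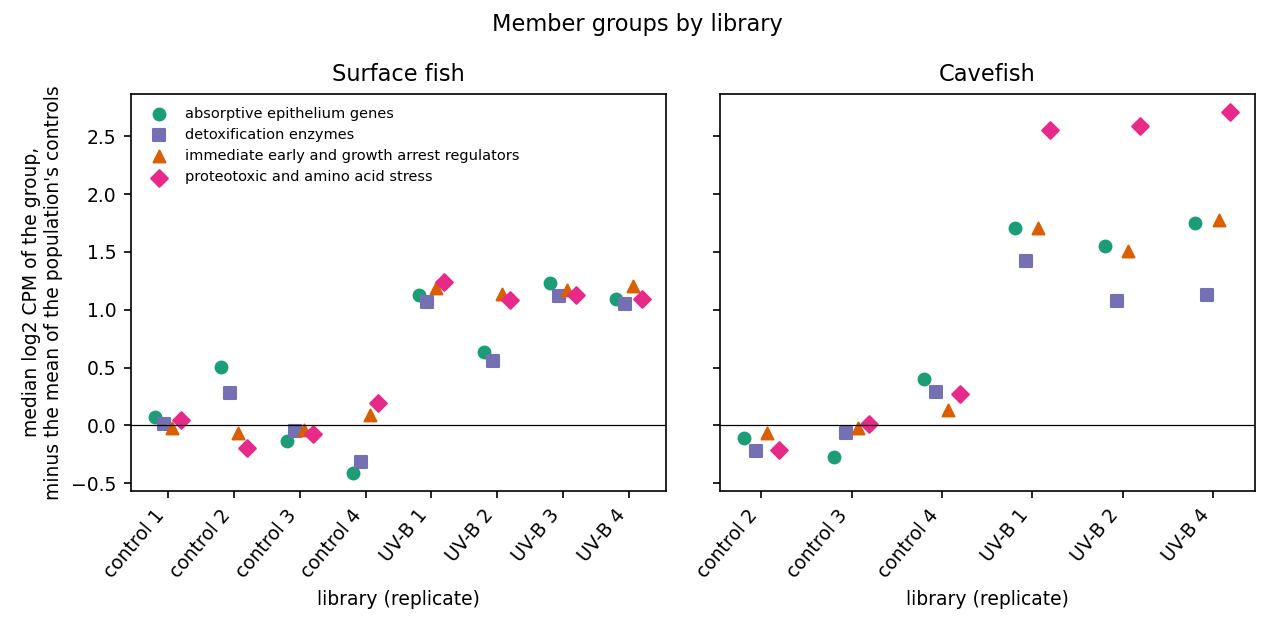
Median log2 CPM of 4 groups of members in each library, minus the mean of the control libraries of the same population, for surface fish (left) and cavefish (right). The absorptive epithelium genes (circles) were at 0.50 in surface control 2 and 0.63 in surface UV-B 2, while the regulators (triangles) stayed between 1.14 and 1.21 in all 4 surface UV-B libraries.

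The largest set was 29 genes, called absorptive epithelium genes here because most of their products are known from that tissue in the intestine. Several of them also work in liver or kidney, and the tissue in which they rose was not tested. Of the 29 genes, 9 encode parts of the microvilli and cell junctions, with median increases of 1.06 in surface fish and 1.67 in cavefish. vil1 encodes villin, which bundles actin in microvilli. It had 132, 182, 108 and 83.5 CPM in surface controls and 284, 188, 303 and 295 CPM after UV-B, and 47.0, 46.3 and 69.2 CPM in cave controls and 175, 161 and 173 CPM after UV-B. The surface groups were separated only narrowly, by surface control 2 and surface UV-B 2, whereas every cave UV-B library was far above the cave controls. The fitted log2 fold changes of vil1 were 1.09 ± 0.19 (SE) in surface fish and 1.65 ± 0.15 in cavefish, and the error after each log2 change below is likewise the SE.

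pdzk1, a scaffold that anchors transporters below the brush border, reached 461, 306, 614 and 546 CPM in surface fish after UV-B from 248, 303, 201 and 165 CPM, and 583, 409.8 and 493 CPM in cavefish from 123, 111 and 193 CPM. cdh17, a cadherin of intestinal epithelium, went from 92.2, 133, 73.6 and 65.0 to 190.2, 126, 202 and 186 CPM in surface fish and from 71.5, 70.5 and 94.6 to 268, 249.8 and 263 CPM in cavefish. In both genes surface UV-B 2 lay close to surface control 2, and for cdh17 it lay below it. The claudins cldn15la and cldn15lb, which form channels in tight junctions, had fitted changes of 1.1 ± 0.13 and 0.86 ± 0.12 in surface fish and 1.74 ± 0.17 and 1.49 ± 0.13 in cavefish. anks4b, part of the complex that links microvillus tips, the EPS8 relatives eps8l3a and eps8l3b and the membrane protein tm4sf5 make up the rest, with increases of log2 CPM between 0.88 and 1.13 in surface fish and between 1.54 and 1.69 in cavefish.

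All 9 brush border and junction genes started lower in cave than in surface controls, by a median of 0.63 log2 units, and 5 of them (vil1, tm4sf5, anks4b, pdzk1 and eps8l3b) were called lower, where 15.0% of the 15812 genes tested were called lower and 12.7% higher. Their increase was larger in cavefish for all 9 (52.1% of the filtered genes and 145 of all 166 members), by a median of 0.64. After UV-B the populations differed by a median of 0.03. The difference in increase and the difference in controls share the control libraries, so a low control level enters both.

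Luminal enzymes and nutrient transporters numbered 11. The peptide transporter gene slc15a1b had the largest deficit in cave controls of all members, with 47.1, 23.6 and 61.1 CPM against 176, 254, 146 and 104 CPM in surface controls. After UV-B it had 251, 220.2 and 252 CPM in cavefish and 273, 209, 356 and 327 CPM in surface fish. The cave groups were far apart, while in surface fish surface control 2 lay above surface UV-B 2, and the fitted changes were 2.45 ± 0.24 and 0.78 ± 0.20. Its paralog slc15a1a went from 44.0, 29.1 and 69.6 to 232, 161 and 229 CPM in cavefish and from 90.4, 149, 99.9 and 66.4 to 232, 150.2, 266 and 236 CPM in surface fish.

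slc5a1, the sodium-coupled glucose transporter, was at 47.0, 74.2, 39.4 and 32.9 CPM in surface controls and 120.0, 79.4, 126 and 115 CPM after UV-B, and at 29.8, 30.2 and 42.3 and 125, 119 and 122 CPM in cavefish. Its surface groups and its cave groups did not overlap. The vitamin C transporter gene slc23a1 and slc7a7, part of an exporter of cationic amino acids, changed by 1.03 ± 0.24 and 0.82 ± 0.14 in surface fish and by 1.27 ± 0.28 and 0.93 ± 0.18 in cavefish. The sulfate transporter gene slc13a1 ran the other way, with the larger change in surface fish (2.06 ± 0.24 against 1.48 ± 0.25). It had 4.54, 9.30, 6.86 and 3.65 CPM in surface controls, 24.0, 20.01, 22.8 and 33.8 CPM in surface UV-B, 15.0, 9.65 and 14.9 CPM in cave controls and 42.7, 22.7 and 45.0 CPM in cave UV-B libraries, so that it was the only 1 of the 11 with a higher level in cave controls.

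Among the enzymes, aoc1, which degrades histamine, had fitted changes of 0.96 ± 0.18 in surface fish and 1.94 ± 0.23 in cavefish. asah2, a ceramidase that acts on dietary sphingolipids, had 0.90 ± 0.17 and 1.80 ± 0.24. For cpo, a carboxypeptidase of the brush border, they were 1.43 ± 0.19 and 1.96 ± 0.23, and for the alkaline phosphatase gene alp3 0.94 ± 0.25 and 1.65 ± 0.22. treh, which splits trehalose, changed by 1.2 ± 0.17 and 1.32 ± 0.27. Over all 11 genes the surface groups did not overlap for 7 (13.7% of the filtered genes) and the cave groups for 11 (21.8%).

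Lipid uptake and transport was represented by 9 genes, with median increases of 0.96 in surface fish and 1.33 in cavefish. cd36, a receptor for long-chain fatty acids, had 85.4, 130.4, 86.2 and 74.1 CPM in surface controls, 173, 114, 179.8 and 196 CPM in surface UV-B, 49.8, 35.2 and 73.9 CPM in cave controls and 176, 122 and 171 CPM in cave UV-B libraries. Its surface UV-B 2 value lay below its surface control 2 value, and its cave groups did not overlap. acsl5, which activates fatty acids, was the lowest of this group in cave controls relative to surface controls, at 10.2, 6.96 and 12.0 against 30.9, 33.4, 27.2 and 27.6 CPM, and rose to 41.1, 34.0 and 42.4 and 67.9, 50.5, 63.8 and 55.5 CPM. mogat2, which rebuilds triacylglycerol from absorbed lipid, lay just inside the lower threshold with an increase of 0.80 in surface fish and 1.39 in cavefish.

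The apolipoprotein genes apoa1a and apoc2 and the lipoprotein assembly genes cideb and pla2g12b had nearly equal increases in the populations. apoa1a changed by 1.2 ± 0.16 in surface fish and 1.01 ± 0.25 in cavefish, and cideb by 0.96 ± 0.11 and 0.93 ± 0.14. abcb11a, related to the bile salt export pump, changed by 1.1 ± 0.22 and 2.29 ± 0.23, and the sterol carrier gene scp2a by 0.87 ± 0.20 and 1.33 ± 0.14. Of the 29 absorptive epithelium genes, 28 were lower in cave than in surface controls. This count depends on a grouping made after the values were seen. The member slc5a8l, a relative of monocarboxylate transporters, was left outside the set and was higher in cave controls by 1.54 log2 units. Of the 29, 12 were called lower, where 15.0% of all genes tested were, and 1, slc13a1, was called higher, where 12.7% were. The larger increase was in cavefish for 26 of the 29 (52.1% of the filtered genes) and also for 119 of the 137 other members. After UV-B the median difference between populations was −0.07 for the 29 genes. The surface groups did not overlap for 20 of the 29 genes (13.7% of the filtered genes). Without the 3 libraries that stood apart, all 29 were without overlap, with median increases of 1.33 in surface fish and 1.87 in cavefish. Those libraries lay closer to the opposite treatment, so leaving them out favours separation. The share of all genes was not computed for this setting. In this set surface UV-B 2 was the lowest of its group for 29 of 29 genes and surface control 2 the highest for 27, so the size of the surface increase moved with these libraries, and the part of intestinal tissue in the pools was not tested.

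Of a list of 14 markers of intestine and exocrine pancreas, 4 could be matched by name, all of them intestinal. vil1 and slc15a1b are members, fabp2 was called higher in both populations but is not a member, and anpepb was called higher in cavefish and missed the threshold in surface fish. Between the controls, 3 of the 4 were called lower in cavefish, where 15.0% of all genes tested were. The remaining 1, not a member, was called higher, where 12.7% were. Their summed level was 782 to 1049 CPM in surface controls, 997 to 1733 CPM in surface UV-B libraries, 505 to 819 CPM in cave controls and 1392 to 1662 CPM in cave UV-B libraries. Markers of other cell types were no members, but the limits on control level and control difference barred some of them whatever their change. The muscle gene acta1b had a mean of 13794 CPM in controls. The lens and photoreceptor genes had a median fitted control difference of −6.34. Of 6 matched epidermal genes 5 were called lower and 1 higher after UV-B in each population. Of 3 muscle genes 2 were called higher and 1 lower in surface fish and none in cavefish. Of 3 neuronal genes 2 were called higher and 1 lower in surface fish and 1 each way in cavefish. The 3 lens and photoreceptor genes were all called higher in surface fish and 1 of them in cavefish. They summed to 1236 to 1709 CPM in surface controls and 2339 to 2586 CPM in surface UV-B libraries. In cavefish they summed to 4.49 to 8.73 CPM in controls and 11.2 to 13.5 CPM after UV-B. No liver or blood marker could be matched by name. The intestinal, epidermal, muscle, neuronal and lens values rest on 4 of 14, 6 of 30, 3 of 21, 3 of 16 and 3 of 15 listed markers. Their names come from tables that favour small p-values, so the counts and summed levels do not describe those tissues. Of all genes tested, 13.4% were called higher in surface fish and 12.6% in cavefish, and the share called lower was not counted.

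**Figure D3:**
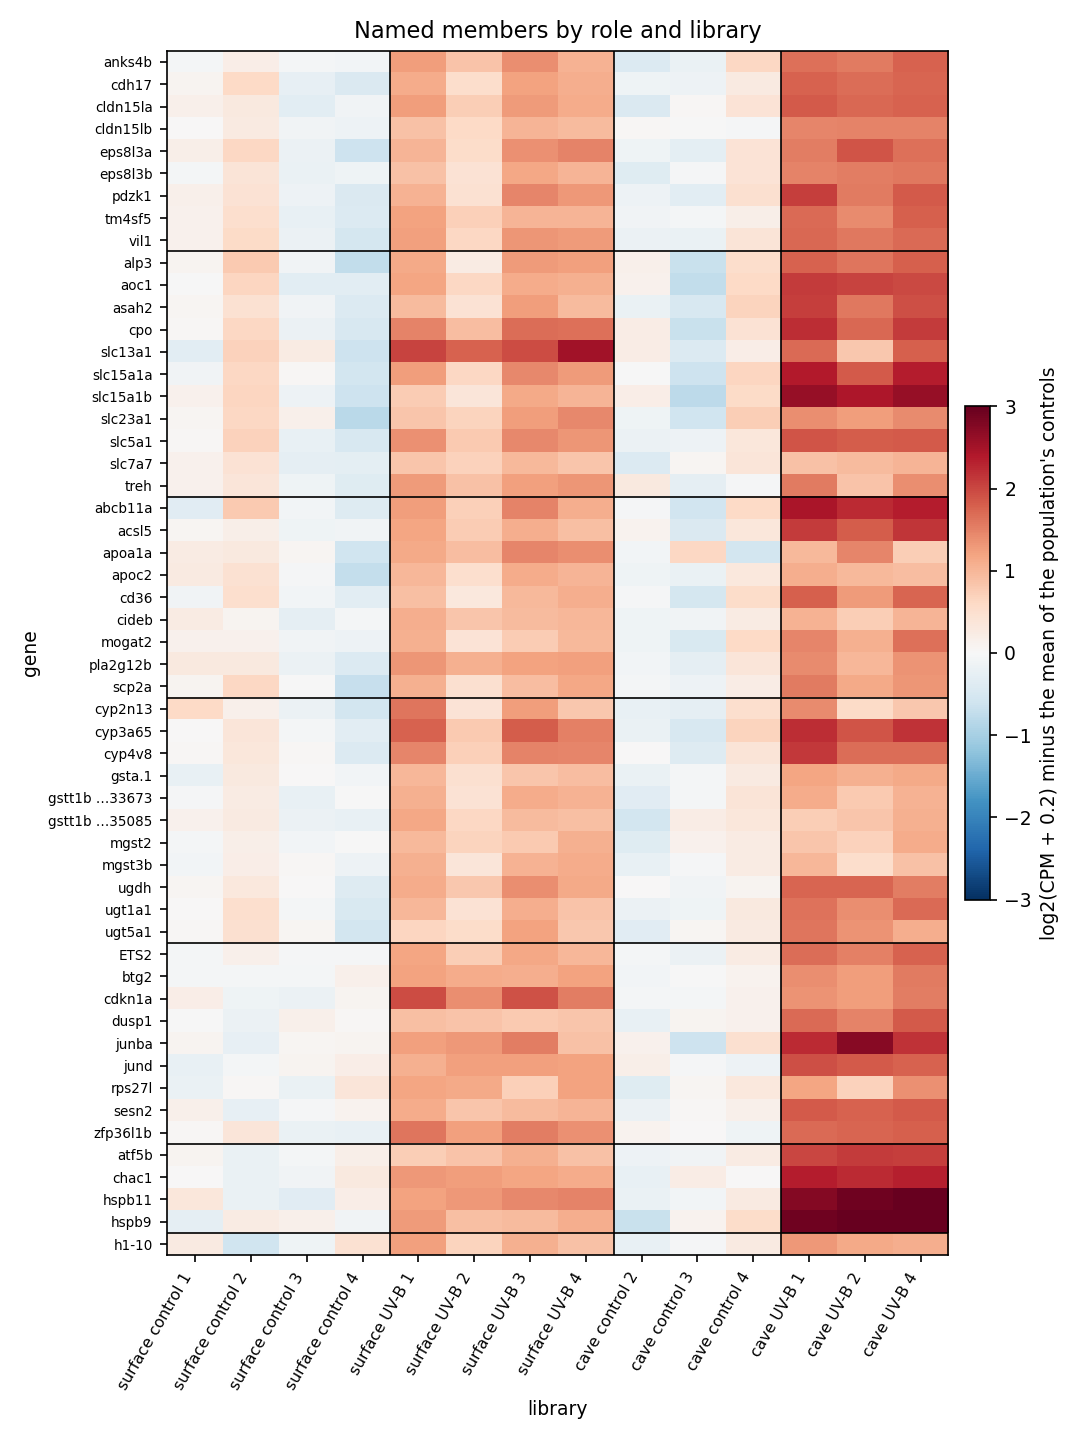
Colour gives log2(CPM + 0.2) of 54 named members (rows, grouped by role from brush border at the top to h1-10 at the bottom) in the 14 libraries (columns), minus the mean of the controls of the same population. The scale ends at 3 in both directions, so the highest hspb9 values are at its limit, and surface UV-B 2 is paler than its replicates in the upper 4 blocks.

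Detoxification enzymes made up 11 identifiers, with median increases of 0.91 in surface fish and 1.13 in cavefish. cyp3a65, a cytochrome P450 that oxidizes foreign compounds and is found in zebrafish liver and gut, had the highest value of all members for the smaller of its increases. It had 164, 209, 157 and 131 CPM in surface controls and 559, 279, 579 and 466 CPM after UV-B, and 192, 159.6 and 355 CPM in cave controls and 1027, 815 and 1003 CPM after UV-B. Both populations were without overlap, although surface UV-B 2 was well below its replicates. cyp4v8, a fatty acid hydroxylase of the same superfamily, changed by 1.29 ± 0.16 and 1.81 ± 0.19 and was lower in cave controls, at 82.9, 62.3 and 107 against 183, 225, 181 and 132 CPM, while cyp2n13 was higher there, at 10.1, 9.76 and 16.9 against 6.65, 4.79, 3.78 and 2.88 CPM.

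The glutathione transferases had more even increases. The cytosolic form gsta.1 changed by 0.81 ± 0.12 in surface fish and 1.12 ± 0.13 in cavefish, and mgst2 and mgst3b, membrane-bound relatives, by 0.89 ± 0.12 and 0.92 ± 0.13 in surface fish and 0.88 ± 0.20 and 0.81 ± 0.15 in cavefish. The 2 identifiers named gstt1b changed by 0.94 ± 0.13 and 0.92 ± 0.13 in surface fish and by 0.96 ± 0.17 and 0.84 ± 0.20 in cavefish, and reads shared between such copies could not be resolved here. ugdh, which makes the UDP-glucuronic acid used for glucuronidation, and the glucuronosyltransferase genes ugt1a1 and ugt5a1 had the larger increases in cavefish: ugt1a1 went from 86.4, 89.2 and 118 to 298, 257 and 314 CPM there and from 79.0, 111, 75 and 56.6 to 156, 106, 166 and 141 CPM in surface fish. Of 39 listed genes of the Nrf2 pathway, which answers oxidative stress, 13 could be matched by name, and gsta.1 was the only member among them. In each population 12 of the 13 were called higher, where 13.4% of all genes tested were called in surface fish and 12.6% in cavefish. The names come from tables that favour small p-values, so this count does not describe the whole pathway.

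Immediate early and growth arrest regulators numbered 9. For all of them the UV-B libraries lay above every control in both populations, as for 8.96% of the filtered genes. junba and jund encode subunits of the AP-1 transcription factor. junba had 23.3, 18.4, 22.7 and 23.2 CPM in surface controls and 51.2, 54.0, 63.2 and 40.5 CPM after UV-B, and 11.9, 6.96 and 15.2 CPM in cave controls and 52.1, 72.4 and 49.3 CPM after UV-B. The levels after UV-B thus overlapped between the populations, from a lower start in cavefish. jund went from 26.8, 30.0, 33.5 and 36.2 to 65.6, 74.4, 73.7 and 73.1 CPM in surface fish and from 30.6, 26.7 and 24.5 to 105, 98.0 and 93.4 CPM in cavefish. ETS2, another transcription factor, changed by 1.03 ± 0.10 and 1.65 ± 0.14.

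cdkn1a encodes p21, the cyclin-dependent kinase inhibitor through which p53 stops the cell cycle. It had 18.8, 14.9, 14.5 and 17.3 CPM in surface controls and 63.7, 43.4, 61.9 and 47.7 CPM after UV-B, and 32.9, 33.0 and 37.8 CPM in cave controls and 88.4, 82.5 and 99.8 CPM after UV-B. All 4 groups were separate: cave controls already lay above every surface control, the cave UV-B libraries were the highest, and the increase was the larger in surface fish, at 1.73 ± 0.14 against 1.38 ± 0.13, though this difference between the increases was not called. sesn2, a p53 target that restrains growth signalling, started at overlapping levels in both populations (17.3, 13.1, 15.2 and 16.7 CPM in surface and 14.2, 16.6 and 17.8 CPM in cave controls) and reached 33.6, 27.7, 30.2 and 31.4 CPM in surface fish and 58.6, 55.8 and 58.5 CPM in cavefish. rps27l, another p53 target in mammals, changed by 1.06 ± 0.15 and 1.09 ± 0.20.

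dusp1, a phosphatase that switches off MAP kinases, went from 55.2, 49.6, 61.9 and 57.7 to 105, 101, 96.2 and 99.1 CPM in surface fish and from 31.1, 38.1 and 39.7 to 119, 102 and 130.0 CPM in cavefish. btg2, which slows proliferation, changed by 1.16 ± 0.08 and 1.41 ± 0.13, and zfp36l1b, related to proteins that destabilize mRNA, by 1.44 ± 0.13 and 1.75 ± 0.13. These 9 genes differed from the absorptive epithelium genes in how they varied between replicates: their median SD of log2 CPM was 0.18 in surface controls and 0.16 in surface UV-B libraries, against 0.42 and 0.31, and surface control 2 was the highest for 2 of 9 and surface UV-B 2 the lowest for 4 of 9. Cave control 4 was the highest cave control for 7 of the 9, against 25 of the 29 absorptive epithelium genes and 136 of all 166 members. Their median increase was 1.16 in surface fish and 1.68 in cavefish, and 1.14 and 1.75 without the 3 libraries that stood apart.

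**Figure D4:**
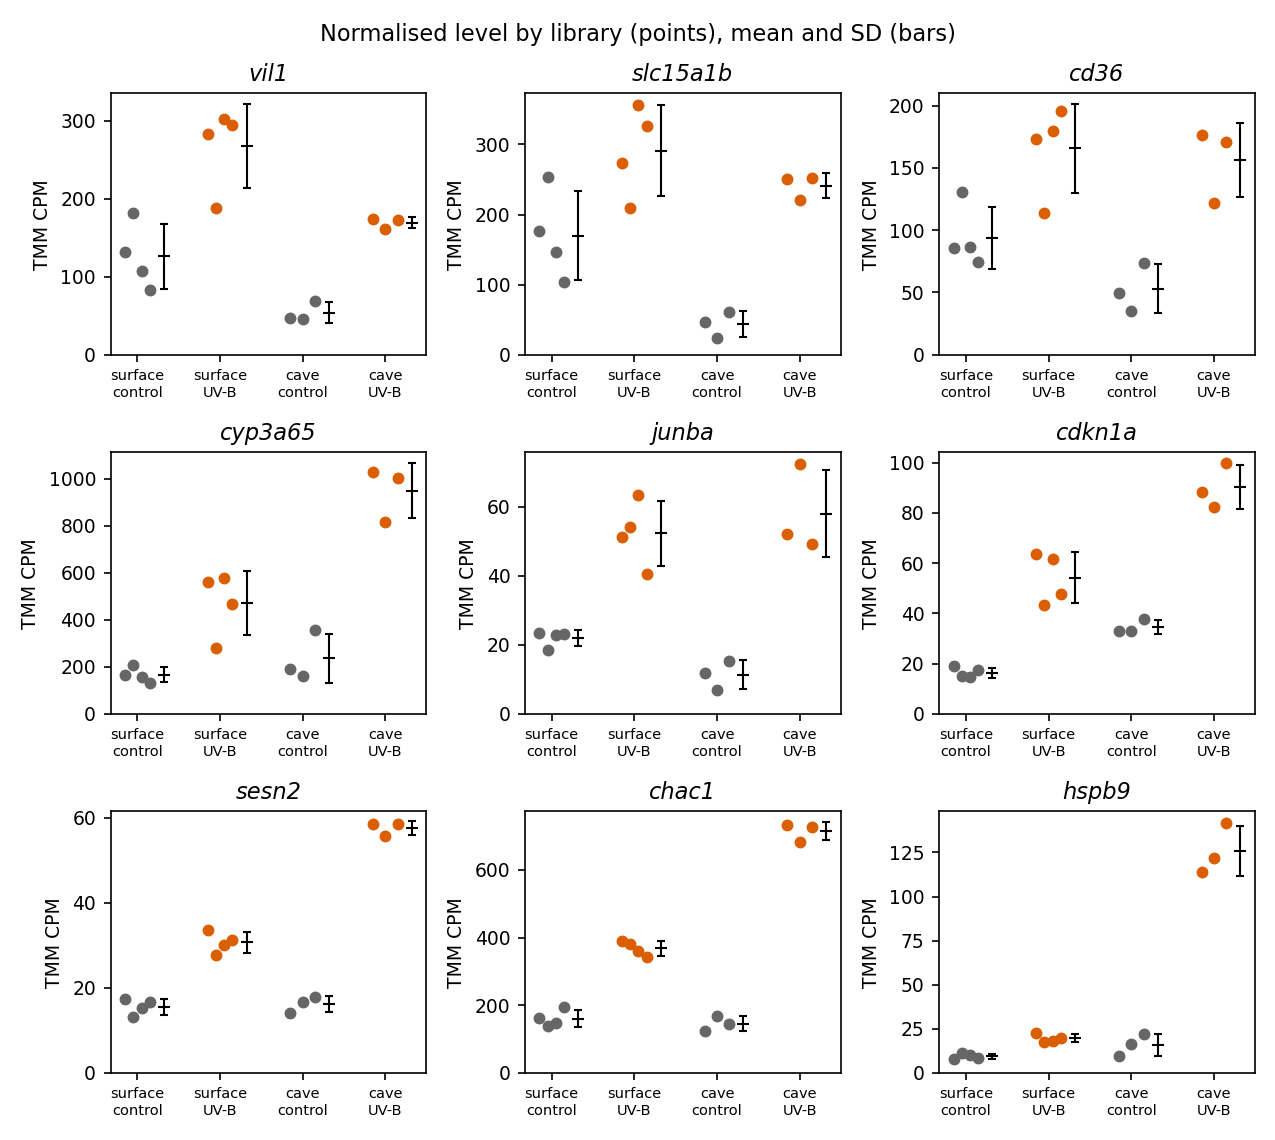
Normalised level in CPM of 9 members in each library (points, grey for controls and orange for UV-B), with the mean and SD of each group (bars; n = 4 for surface groups and n = 3 for cave groups). Every axis starts at 0, and slc15a1b and cd36 overlap between surface controls and surface UV-B, while the regulators and stress genes do not.

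From a list of immediate early transcription factors 19 identifiers could be matched, of which 14 were called higher and 4 lower in surface fish and 15 higher and 2 lower in cavefish; 3 (junba, jund and btg2) are members and 6 were among the strongly induced genes. All 6 matched p53 targets were called higher in both populations, and 2 of them (cdkn1a and sesn2) are members. None of the 4 matched genes of DNA damage signalling and repair is a member, and 3 were called higher in surface fish and 2 in cavefish. Of 18 matched inflammatory and NF-kB genes none is a member, with 4 called higher and 11 lower in surface fish and 9 higher and 4 lower in cavefish. Of these, 1, cebpb, was among the strongly induced genes. The il1b identifier ENSAMXG00000035729 rose by 1.04 in surface fish and 3.37 in cavefish, but its control difference of −2.04 was outside the limit. il11a rose by 1.69 and 1.35, but its mean count of 16.7 was below the minimum. Of 8 matched MAP kinase feedback genes, dusp1 is the only member, with 3 called higher and 4 lower in surface fish and 4 higher and none lower in cavefish. No clock, ribosome biogenesis or proteasome gene that could be matched (6, 2 and 6) is a member. Of all genes tested, 13.4% were called higher in surface fish and 12.6% in cavefish. The share called lower was not counted. A matched name depends on the shortened tables that favour small p-values, so these counts do not describe whole pathways.

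The 4 genes of proteotoxic and amino acid stress had the widest gap between the populations. hspb9 and hspb11 encode small heat shock proteins, which hold unfolding proteins in solution. hspb9 had 7.64, 11, 10.3 and 8.59 CPM in surface controls and 22.8, 17.5, 18 and 19.9 CPM after UV-B, and 9.38, 16 and 22.1 CPM in cave controls and 114, 122 and 142 CPM after UV-B. hspb11 had 35.3, 24.0, 21.7 and 31.8 CPM and 63.9, 68.1, 75.1 and 78.6 CPM in the surface groups, and 28.0, 30.4 and 39.1 CPM and 219, 246 and 275 CPM in the cave groups. The groups of both genes were without overlap in each population, and the cave UV-B libraries lay far above every surface UV-B library.

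chac1, which degrades glutathione and is a target of the integrated stress response, went from 161, 139, 147 and 195 to 389, 381, 361 and 342 CPM in surface fish and from 122, 168 and 145 to 733, 684 and 728 CPM in cavefish. atf5b, a transcription factor of the same response, went from 16.2, 13.2, 14.9 and 17.5 to 25.6, 27.8, 32.4 and 28.3 CPM and from 14.1, 14.7 and 18.8 to 63.3, 67.9 and 67.1 CPM. Control levels of both genes overlapped between the populations, and all 3 cave UV-B libraries lay above all 4 surface UV-B libraries. Over the 4 genes the median increase was 1.13 in surface fish and 2.62 in cavefish. All 8 matched genes of the integrated stress and unfolded protein response, of 36 listed, were called higher in both populations. Of 10 matched heat shock and chaperone genes, of 50 listed, 8 were called higher in surface fish and 7 in cavefish. In each population 2 were called lower. Of all genes tested, 13.4% were called higher in surface fish and 12.6% in cavefish. The share called lower was not counted. Since the names favour small p-values, these counts do not describe whole pathways.

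h1-10, a linker histone gene whose product binds DNA between nucleosomes, was higher in every cave control than in any surface control and kept that order after UV-B. It had 65.0, 35.8, 49.0 and 74.8 CPM in surface controls, 127, 85.6, 113 and 100.3 CPM in surface UV-B, 109, 124 and 155 CPM in cave controls and 313, 279 and 272 CPM in cave UV-B libraries. Replicate 2 was the lowest surface library both among controls and after UV-B.

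Of the other 112 members, 76 have a name and 36 do not. Their median increase was 1.02 in surface fish and 1.42 in cavefish. Of the 112, 98 had the larger increase in cavefish (52.1% of the filtered genes). plek2, which shapes the actin cytoskeleton, changed by 1.05 ± 0.23 in surface fish and 2.43 ± 0.19 in cavefish, and foxa3, a transcription factor of endoderm, by 1.36 ± 0.20 and 1.38 ± 0.21. These 2 were singled out after their values were seen. gcnt3, which builds branched glycans on mucins, had the largest surface increase of all members. It had 6.43, 8.17, 5.98 and 7.83 CPM in surface controls and 42.1, 28.3, 38.8 and 33.6 CPM after UV-B, and 5.63, 6.96 and 8.06 CPM in cave controls and 17.5, 15.5 and 17.0 CPM after UV-B, so that equal starts were followed by higher surface levels in every UV-B library.

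The largest cave increase belonged to ENSAMXG00000040073, with 1.98, 0 and 8.40 CPM in cave controls and 52.3, 15.3 and 32.9 CPM after UV-B. It was not called in surface fish, where controls had 11.2, 0.751, 2.39 and 5.59 CPM and UV-B libraries 11.2, 3.87, 11.6 and 7.08 CPM and overlapped. A count of 3, the most that a 0 allows, corresponds to 0.197 to 0.404 CPM, and the lowest of these values rest on few counts. ppp1r27b had 0.443, 1.31, 1.51 and 0.824 CPM in surface controls, 2.79, 1.66, 3.21 and 1.42 CPM in surface UV-B, 2.40, 2.36 and 2.91 CPM in cave controls and 20.7, 29.4 and 28.9 CPM in cave UV-B libraries. It was called in cavefish and not in surface fish. In MFAP4 a single cave library was far above the others, with 3.33, 2.02 and 2.58 CPM in controls and 12.0, 63.2 and 8.05 CPM after UV-B.

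Levels spanned a wide range. The mean over the 7 controls had a median of 21.4 CPM and ran from 1.68 CPM (ppp1r27b), 2.47 CPM (zgc:194887) and 2.86 CPM (ENSAMXG00000024942) to 570.0 CPM for zgc:158846 and 821 CPM for ENSAMXG00000039005. These levels are not corrected for transcript length and do not rank the genes by number of transcripts. Just inside the lower threshold, by their surface increase, were ugt5a1 (0.802), mogat2 and gsta.1 (both 0.805), and just outside it were hbegfb (0.799), mogat3b (0.795) and brd2a (0.793). By the smaller of their increases, the highest genes were cyp3a65 (1.47), ENSAMXG00000009880 (1.45), cpo, zfp36l1b (both 1.44), slc13a1 and tspan13a (both 1.43).

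Between the populations without UV-B, 106 of the 166 genes were lower in cavefish and 60 higher, with a median difference of −0.20 log2 units. In the fit over all genes 42 were called lower, where 15.0% of 15812 genes tested were called lower, and 19 higher, where 12.7% were. The highest control differences belonged to ENSAMXG00000014329, slc5a8l, a relative of monocarboxylate transporters, and cyp2n13 (1.60, 1.54 and 1.41), and the lowest to slc15a1b, ENSAMXG00000029035 and zgc:194887 (−1.98, −1.94 and −1.71). Cave minus surface increases were highest for ENSAMXG00000040073, ppp1r27b, hspb9, slc15a1b and MFAP4 (3.12, 2.22, 2.00, 1.73 and 1.66) and lowest for gcnt3, slc13a1, sb:cb1058 and cdkn1a (−1.03, −0.64, −0.46 and −0.33). After UV-B the median difference between the populations was 0.25, and 61 genes were lower in cavefish. The interaction of population and treatment, which is made of the increases used by the rule, was called for 20 genes with the larger increase in cavefish (1.41% of 16104 genes tested) and for 1, gcnt3, with the larger increase in surface fish (2.29%). All 4 proteotoxic and amino acid stress genes were among the 20, as were 5 of the 9 regulators (junba, jund, ETS2, sesn2 and dusp1) and 2 of the 29 absorptive epithelium genes (slc15a1b and acsl5). The calls of junba, jund, ETS2, slc15a1b, acsl5 and gcnt3 were each lost under at least 1 alternative, and the 20 became 34 without surface control 4 and 44 without cave control 4. The share of all genes called was not counted in these refits, so the rise cannot be read as particular to the members.

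Scaling bears on the size of the increases. With library totals in place of TMM the median of all genes tested moved to −0.18 in surface fish and −0.33 in cavefish, and the medians of the members to 0.83 and 1.14, with 166 of 166 above 0 in both. In the control difference 58 members lay above 0 in the fit with TMM, 40 with library totals and 62 with DESeq2 size factors, so the direction of small control differences follows the scaling.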

How the data were processed

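The deposited table held raw read counts per gene, which the authors obtained by mapping reads with STAR to the surface fish genome and counting with the same program on the Ensembl annotation. The strand setting and the handling of multi-mapped reads were not given in the sources used here. The study's own table of raw counts holds higher counts in most of the rows compared, so CPM, totals and the minimum mean count of 50 describe the deposited counts, which may be part of the reads. Of the 19076 genes 473 had no count. Genes that overlap or have near-identical copies are uncertain.

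For CPM and the selection rule, counts were scaled with TMM over all 14 libraries, and log2 CPM used a prior count of 2. Each comparison was tested in edgeR 4.0.16 (R 4.3.3) by quasi-likelihood F tests after filterByExpr, with Benjamini-Hochberg adjustment over all genes tested and calls at an adjusted p-value under 0.05. The surface, cave and control comparisons used only their own libraries, and the interaction used all 14. TMM factors were computed anew in each fit from the libraries and genes that it used. Standard errors were the log2 fold change over the root of the F statistic. DESeq2, the program of the study (here version 1.42.0), and limma-voom (limma 3.58.1) were alternatives, as were other scalings, thresholds and leaving out single libraries. The fits were tested on simulated data. Replicates differed by 5.01 to 18.5 chi-square units per degree of freedom for genes holding 20 or more counts in a pair, so none was a repeat. P-values measure only the spread between these pools.

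The members, role groups and gene lists were chosen with earlier results of these data known. Named were members of sure function or in a list, and the extremes of the smaller increase, of cave minus surface increase, of the control difference and of the control level. Some results on single genes are not reported here. Gene names came only from the name columns of the study's gene tables. Of 128 distinct member names 101 matched a symbol of the RefSeq table (AstMex3_surface), which is of another build, so no coordinates are given. The planned search for promoter motifs was not run, since no sequences were used here.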

Additional observations from a re-analysis of the deposited data

Results flagged for a closer look

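Within the surface groups of 4, 148 sets of values were examined for a library far from the other 3, measured as its gap to the nearest library over the range of the group. Of these 14 passed Dixon's limit, where chance gives about 1 in 20 for a single set. The sets come from the same libraries and are not independent, so their number cannot be judged against that rate. In surface UV-B replicate 2 the gap share was 0.836 for the median increase of all members, 0.970 for cyp4v8, 0.920 for mgst3b, 0.896 for gstt1b (ENSAMXG00000033673), 0.876 for slc5a8l, 0.863 for vil1 and 0.862 for alp3, with the library below its replicates in each. In surface control replicate 2 it was 0.899 for junba, which was low there, and 0.870 for anks4b and 0.845 for ETS2, which were high. The other cases were btg2 (0.966) and ENSAMXG00000039005 (0.938) in surface control replicate 4, jund (0.853) in surface UV-B replicate 1 and rps27l (0.858) in surface UV-B replicate 3.

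The interaction of population and treatment was called for 14 of the 71 named members examined, where 1.41% of all genes tested were called with the larger increase in cavefish and 2.29% with the larger in surface fish. It is given as a size only, because the members were selected on both increases and some were named as extremes of their difference. The log2 increase was larger in cavefish by 2.27 for ppp1r27b, 1.94 for hspb9, 1.67 for slc15a1b, 1.58 for hspb11, 1.39 for plek2, 1.17 for atf5b, 1.1 for chac1, 1.09 for junba, 1.01 for acsl5, 0.85 for sesn2, 0.85 for dusp1, 0.67 for jund and 0.61 for ETS2. For gcnt3 the value was −1.05, the larger increase being in surface fish.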

How the results depend on the processing

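The surface and cave responses kept their counts of called members within 1.5 times under every alternative, with 158 to 165 and 155 to 164 members called when single libraries were left out. With library totals as scaling, the control difference was called higher for 10 members and lower for 64, and 95 genes met the selection rule. The median control difference of all genes tested moved as well, from −0.03 with TMM to −0.21 with library totals. A lower threshold of 1.0 gave 85 genes and one of 0.6 gave 321. With the replicate number as a block, the interaction was called higher for 13 members and lower for 0, and limma-voom also gave 0 lower. The share of all genes called was not counted under these alternatives. Correlations of same-numbered deviations between control and UV-B libraries were 0.14, −0.06, 0.02 and 0.11 in surface fish. Among differently numbered surface libraries the lowest correlation was −0.20 and the highest 0.18. The 2 shared numbers in cavefish gave 0.25 and 0.17. Every differently numbered cave pair lay below both, with 0.13 as the highest value and −0.25 as the lowest. Whether the numbers pair the samples was not tested, and so few shared numbers could not decide it.

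Leaving out single libraries, the control difference was called higher for 10 (without cave control 4) to 20 members and lower for 27 (without cave control 3) to 50, and without surface control 1, 3 or 4 it was called higher for 12. The interaction was called higher for 14 to 44 members, with 34 without surface control 4 and 44 without cave control 4, and lower for 0 (without cave UV-B 2) to 1. The rule chose 146 to 207 genes, with median increases of 0.96 to 1.05 in surface fish and 1.41 to 1.68 in cavefish (1.68 without cave control 4) and median control differences of −0.34 to −0.16. Without surface control 2, surface UV-B 2 and cave control 4 together, chosen after seeing the data, the rule chose 229 genes, of which 137 were members, and the interaction was called higher for 29 members. Shares of all genes called were not counted when libraries were left out.

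Named members were refitted under the same alternatives, for the interaction only where it was called or among the most extreme. No direction changed. Calls were lost in 1 surface, 7 cave and 31 interaction fits, the last for junba, jund, ETS2, acsl5, slc15a1b and gcnt3. Calls absent from the main fit were gained in 12 surface, 6 cave and 5 interaction fits. The cause of these changes was not tested. Depth limits the members at a few CPM, such as ppp1r27b.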
